A study of Mus musculus with 24 samples.

Results

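The plasma membrane amino acid transporters Slc3a2, Slc7a5, Slc7a6, Slc7a7, Slc7a1, Slc7a3, Slc1a5, Slc38a1, Slc38a2 and Slc6a9 were followed in single mouse embryos that had been split into sister embryos or left intact. These 10 genes were picked by name and function from the 37229 gene symbols in the count table, by a rule that uses no threshold on a measured value, although earlier results of these data were known. All 10 were present in the table, 9 were expressed highly enough to be tested, and Slc6a9 was not.

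Mammalian cells take up most amino acids through a small number of carrier families. Slc3a2 (4F2hc, CD98) is a glycoprotein heavy chain that brings light chains such as Slc7a5, Slc7a6 and Slc7a7 to the plasma membrane, where each heterodimer exchanges amino acids. The remaining members work without that heavy chain, as uniporters of cationic amino acids, as sodium-dependent exchangers or as sodium-coupled importers. In the preimplantation embryo, amino acids brought in by such carriers serve protein synthesis, mTORC1 signalling and, for glycine, the control of cell volume.

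All embryos came from in vitro fertilization in ICR mice, and all groups were cultured under lowered oxygen. For the split groups, late two-cell embryos were placed in G-PGD biopsy medium and their blastomeres parted by micromanipulation. Each blastomere then grew alone in modified sodium hyaluronate gel, so that 1 two-cell embryo gave a pair of sisters. The groups were 4 control 8-cell embryos, 6 split morulae from 3 sister pairs, 5 control morulae, 6 split blastocysts from 3 sister pairs and 3 control blastocysts. Control embryos stayed intact and were cultured in parallel. The gel is named for the split groups alone, so separation and gel culture cannot be told apart, and no litter, sex or batch is given. An embryo is called here by its group and, for split embryos, by pair and blastomere (3_2 is the second embryo of sister pair 3).

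Libraries were made from poly(A) RNA of whole embryos by Smart-seq2, and levels are read counts scaled to a common library total (CPM). Total counts per embryo were 26282853 to 38514899 at the 8-cell stage, 14146833 to 18852776 in split morulae, 13888842 to 19014808 in control morulae, 13439059 to 25228658 in split blastocysts and 11316911 to 12653788 in control blastocysts. Genes with at least 1 CPM numbered 8590 to 10256 in split morulae and 10352 to 10930 in control morulae, and 10473 to 11517 in split blastocysts against 11526 to 12184 in control blastocysts. Mitochondrial transcripts took 1.81 to 3.19% of counts in split morulae and 2.70 to 5.06% in control morulae, and 0.841 to 2.34% in split blastocysts against 3.47 to 4.85% in control blastocysts. Summed trophectoderm markers (12 of 12 detected) were at 520 to 2660 CPM in split morulae (median 1519) and 651 to 1224 CPM in control morulae (median 747), and reached 5350 to 7316 CPM in split blastocysts and 2552 to 3799 CPM in control blastocysts. Of 13 cumulus and granulosa markers, 4 had counts in each group, with Amh, Foxl2, Fshr, Inha and Inhba at 0 throughout. In 8-cell embryos the 4 were Kitl, Nr5a2, Slc38a3 and Star, and Cyp19a1, Has2, Ptx3 and Tnfaip6 were also at 0. The sum of the 13 markers was 240 to 391 CPM in 8-cell embryos and at most 214 CPM at later stages. The part of depth, RNA composition and cell composition in the results below was not tested, and in whole embryos fewer cells of a type and less RNA per cell cannot be told apart.

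The 9 measurable transporters fell into an abundant pair and a low remainder. Over the 24 embryos, the median level per transcript length was 74.7 TPM for Slc3a2 and 74.1 TPM for Slc7a6. The next was Slc1a5 at 7.85 TPM, followed by Slc7a5 at 6.20, Slc7a7 at 4.57, Slc38a1 at 3.02, Slc38a2 at 1.42, Slc7a1 at 0.713 and Slc7a3 at 0.0369 TPM. Slc3a2 and Slc7a6 together made up between 68.4 and 97.3% of the TPM of these transporters in each embryo. Slc3a2, Slc7a5, Slc7a6 and Slc1a5 had counts in 24 of 24 embryos, Slc7a7 and Slc38a1 in 20, Slc7a1 in 19, Slc38a2 in 17 and Slc7a3 in 13. Spread between embryos differed by transporter too. The standard deviation of log2 CPM over 18 units (intact embryos, and sister pairs with their counts summed) was 0.34 for Slc7a6 and 1.09 for Slc3a2, and it ran from 1.35 for Slc1a5 to 3.25 for Slc38a1 among the others.

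**Figure D1:**
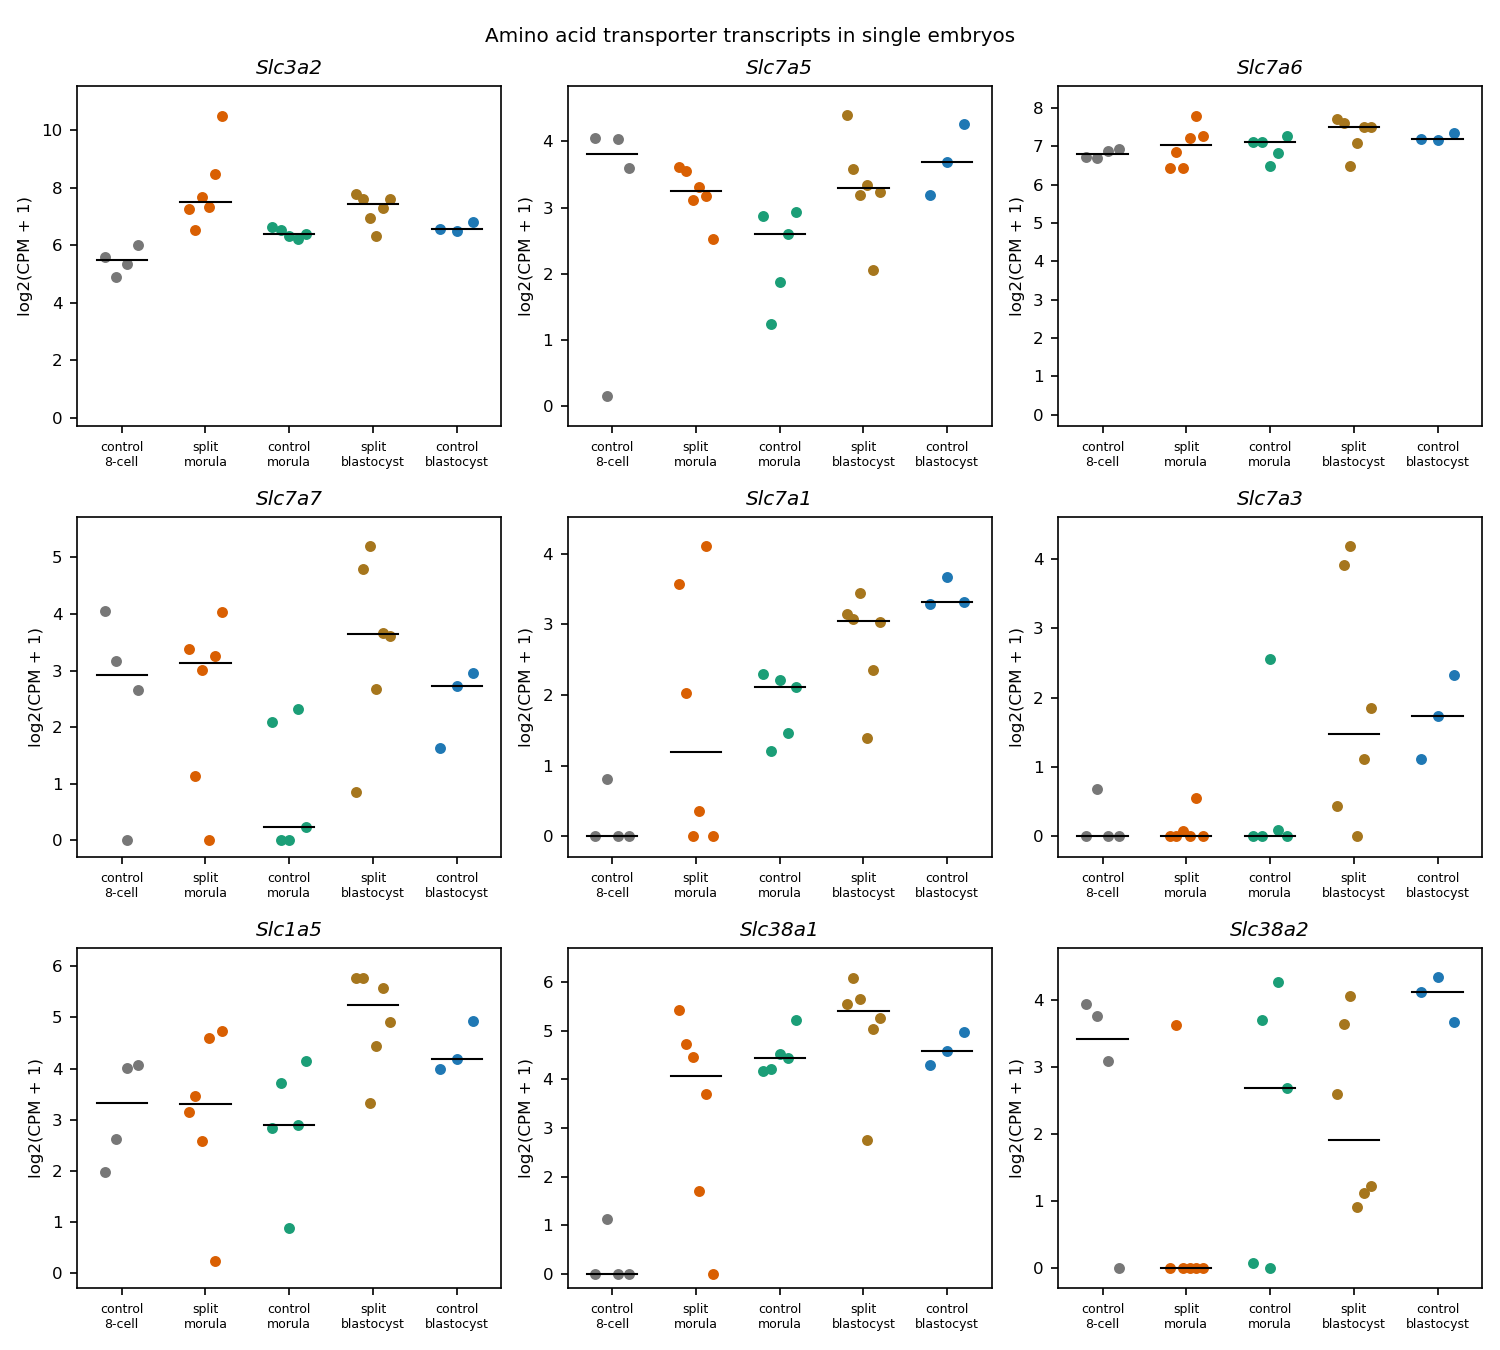
Normalised level of 9 amino acid transporters in each of 24 embryos, as log2(CPM + 1) on the vertical axis, with the stage and treatment groups on the horizontal axis. Points are embryos and lines are group medians; Slc3a2 has 1 split morula far above all others at 1439 CPM, while Slc7a6 varies little between groups and Slc38a1 is at 0 in 3 of 4 8-cell embryos.

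The start regions of the 2 most abundant members are shown because these genes sit at like levels and differ in spread. RefSeq promoter entries (GRCm38.p6, 250 bases before the transcript start) were found for 6 of the 10 transporters. Both sequences run 5′ to 3′ on the gene's strand, with matches to GGGCGG (the GC box) and TGACNNNGC (the core of the antioxidant response element) in capitals.
Slc3a2, chr19:8713898-8714147, minus strand: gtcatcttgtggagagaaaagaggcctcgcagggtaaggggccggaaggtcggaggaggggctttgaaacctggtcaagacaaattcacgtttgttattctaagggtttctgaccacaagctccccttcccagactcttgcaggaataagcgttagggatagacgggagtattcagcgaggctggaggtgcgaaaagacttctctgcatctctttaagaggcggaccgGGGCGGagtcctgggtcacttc
Slc7a6, chr8:106168671-106168920, plus strand: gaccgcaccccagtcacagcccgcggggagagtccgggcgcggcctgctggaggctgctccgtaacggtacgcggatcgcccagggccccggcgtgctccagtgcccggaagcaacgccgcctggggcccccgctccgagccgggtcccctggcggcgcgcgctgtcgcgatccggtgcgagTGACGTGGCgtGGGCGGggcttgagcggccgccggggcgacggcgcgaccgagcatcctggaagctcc
The Slc3a2 entry had 53.6% G and C, and the Slc7a6 entry shown had 77.2%. Slc7a6 has a second, overlapping entry (chr8:106168604-106168853, 74.0% G and C) that holds neither motif. On either strand, GGGCGG occurs in 32.7% of the 32851 promoter entries of the table and in 7 of the 14 entries of these transporters. TGACNNNGC occurs in 10.2% of all entries, and among the transporters in entries of Slc7a6, Slc7a1, Slc38a2 and Slc6a9. TGATGNAA, the core of the C/EBP-ATF response element through which ATF4 acts, occurs in 3.45% of all entries and here in 2 entries of Slc7a7. The E-box CACGTG, in 6.02% of all entries, had no match in these 14. The matches describe letters in these windows and do not show binding.

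The heavy chain Slc3a2 was the transporter with a call between split and intact embryos. Slc3a2 measured 91.6 CPM in the lowest split morula, 182 CPM at their median and 1439 CPM in the highest, against 98.3, 92.2, 79.2, 73.6 and 82.5 CPM in the 5 control morulae. All but 1 of the 6 split morulae lay above every control morula, and embryo 1_2, at 91.6 CPM, lay within the control range. With sisters summed, the pairs held 128, 185 and 903 CPM in split morulae, against 73.8 to 98.9 CPM in control morulae, so the units did not overlap, which was so for 7.25% of all tested genes. Slc3a2 was higher in split morulae by a log2 fold change of 2.24 ± 0.43 (SE; edgeR adjusted p = 0.0459, 3 pairs and 5 embryos). That call was 1 of 9 transporters in this comparison, where 0.126% of the 15875 tested genes were called. The size rests on sister pair 3, since without it the log2 fold change was 0.86 and the adjusted p 0.411. Without embryo 3_2 alone the log2 fold change was 1.36 and the adjusted p 0.0875. Leaving out any 1 of the 5 control morulae also ended the call, with log2 fold changes of 2.19 to 2.29 and adjusted p-values of 0.0763 to 0.133. The direction was the same in 16 of 16 alternative analyses and the call stood in 5 of them, with adjusted p-values between 7.21e-05 (DESeq2) and 0.411. The number of genes called also depended on the method. DESeq2 called 266 up and 410 down of 15447 genes, and edgeR on the compared groups alone 1 up and 3 down of 12194.

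Embryo 3_2 stood apart in Slc3a2. Its sister 3_1 was the second highest of all embryos at 353 CPM, and the 2 sisters differed 4.08-fold. In TPM, Slc3a2 ranked 129 among the transcripts of embryo 3_2 and 712 in embryo 3_1, against 1964 to 2288 in control morulae. Embryo 3_2 had 10256 genes with at least 1 CPM, the most of the split morulae, and 1.81% mitochondrial counts, the lowest share of the split morulae. Embryo 3_1 had 8590 such genes, the fewest of all embryos, with 17000462 total counts and 2.91% mitochondrial counts. Among 7672 genes with a mean of at least 8 CPM, 11 had 1 embryo at least 4-fold above the next, and 6 of these peaked in embryo 3_2. Besides Slc3a2 they were Btg2 (an antiproliferative gene), Plk2 (a polo-like kinase), Uchl1 (a ubiquitin hydrolase), Liph (a lipase) and Xrcc1 (a DNA repair scaffold). Plk2 showed the largest gap, at 389 CPM and 18.03-fold over the second embryo. The sum of 10 blood and immune markers was 106 CPM in embryo 3_2, 15.3 CPM in embryo 3_1 and 2.11 to 6.04 CPM in the other split morulae, against 0 to 4.30 CPM in control morulae. Of these markers 3 had counts in split morulae, and Ptprc, Hbb-bs, Hbb-bt, Cd3e, Lyz2, Csf1r and Itgam were at 0 in all 6. The trophectoderm sum was lowest in embryo 3_2, at 520 CPM. The part of these markers in the Slc3a2 level was not tested.

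At the blastocyst stage Slc3a2 overlapped between the groups. Split blastocysts ran from 79.1 CPM through a median of 175 CPM to 219 CPM, against 93.6, 89.1 and 112 CPM in the 3 control blastocysts. The lowest split blastocyst, embryo 2_2, was below all controls, and 5 of 6 were above all of them. The log2 fold change was 0.79 ± 0.49 (SE; edgeR adjusted p = 0.507, 3 pairs and 3 embryos). The split effect at the blastocyst minus that at the morula was -1.45 ± 0.66 on the log2 scale and was not called (edgeR adjusted p = 0.311). Between split blastocysts and split morulae the log2 fold change of -1.34 ± 0.50 was also not called (edgeR adjusted p = 0.148), and it was 0.04 without pair 3 of the split morulae and -1.77 (adjusted p = 0.0225) without pair 1.

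Over normal development Slc3a2 was lowest at the earliest stage. The 8-cell embryos held 47.8, 28.6, 39.96 and 63.6 CPM, below every later embryo of any group. In control morulae against 8-cell embryos the log2 fold change was 0.99 ± 0.41 with units that did not overlap, yet the call was missed (edgeR adjusted p = 0.0817). In control blastocysts against control morulae it was 0.11 ± 0.44 (edgeR adjusted p = 0.932). Ordered by unit mean, the groups ran split morula (405 ± 432 CPM), split blastocyst (161 ± 56.5), control blastocyst (93.2 ± 10.4), control morula (86.1 ± 10.1) and 8-cell embryo (43.2 ± 14.0; SD, n = 3, 3, 3, 5 and 4 units). Only the step between control morula and 8-cell embryo separated neighbours without overlap.

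Of the light chains, Slc7a6, which exchanges cationic for neutral amino acids with sodium, was abundant and the most even of the 9. Slc7a6 ran from 85.4 CPM through a median of 131 CPM to 221 CPM in split morulae, against 136, 139, 88.4, 112 and 154 CPM in control morulae. In split blastocysts it ran from 88.7 through 179.6 to 208 CPM, against 145, 142 and 162 CPM in control blastocysts. Both split groups, of 6 embryos each, spanned their 5 and 3 controls. The log2 fold changes of split over control were 0.09 ± 0.24 at the morula (edgeR adjusted p = 0.967) and 0.21 ± 0.27 at the blastocyst (edgeR adjusted p = 0.868). The 8-cell embryos held 105, 103, 117 and 122 CPM, and all neighbouring groups in the order of means overlapped.

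Slc7a5 (LAT1), the carrier of leucine and other large neutral amino acids, was roughly an order of magnitude scarcer. Slc7a5 was 4.77 to 11.2 CPM in split morulae with a median of 8.50, against 6.30, 1.37, 2.66, 5.08 and 6.68 CPM in control morulae. It was 3.18 to 20.1 CPM in split blastocysts with a median of 8.80, against 8.15, 11.9 and 18.2 CPM in control blastocysts. The groups overlapped at both stages, and the log2 fold changes of 0.96 ± 0.91 and -0.27 ± 1.03 were not called (edgeR adjusted p = 0.725 and 0.990). The 8-cell embryos held 15.6, 0.112, 15.4 and 11.1 CPM. Control blastocysts were above all control morulae in Slc7a5, with a log2 fold change of 1.44 ± 0.91 that was not called (edgeR adjusted p = 0.350).

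Slc7a7, the light chain that releases cationic amino acids from epithelial cells, was patchy. Slc7a7 ran from 0 through a median of 7.82 CPM to 15.3 CPM in split morulae, against 3.27, 0, 0, 3.97 and 0.171 CPM in control morulae. It ran from 0.815 through 11.5 to 35.6 CPM in split blastocysts, against 2.12, 5.61 and 6.74 CPM in control blastocysts. With sisters summed, the 3 split blastocyst pairs lay above the 3 control blastocysts. Neither log2 fold change was called, at 2.26 ± 1.43 for the morula (edgeR adjusted p = 0.492) and 1.70 ± 1.66 for the blastocyst (edgeR adjusted p = 0.782).

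The ratio of the heavy chain to its light chains had its highest values in split morulae. The ratio of Slc3a2 TPM to the summed TPM of Slc7a5, Slc7a6 and Slc7a7 was 0.920 to 10.4 in split morulae (median 1.83), against 0.660 to 1.12 in control morulae (median 0.851). Without embryo 3_2 the highest split morula was at 2.53. In split blastocysts the ratio was 0.671 to 1.23 (median 1.05), against 0.702 to 0.768 in control blastocysts (median 0.748). The 8-cell embryos were lowest, at 0.324 to 0.576. Slc7a6 supplied between 60.0 and 98.8% of the light chain TPM in each embryo, so the ratio mostly compares Slc3a2 with Slc7a6. A further partner, Slc7a8, had a median of 0 and a maximum of 4.40 TPM.

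**Figure D2:**
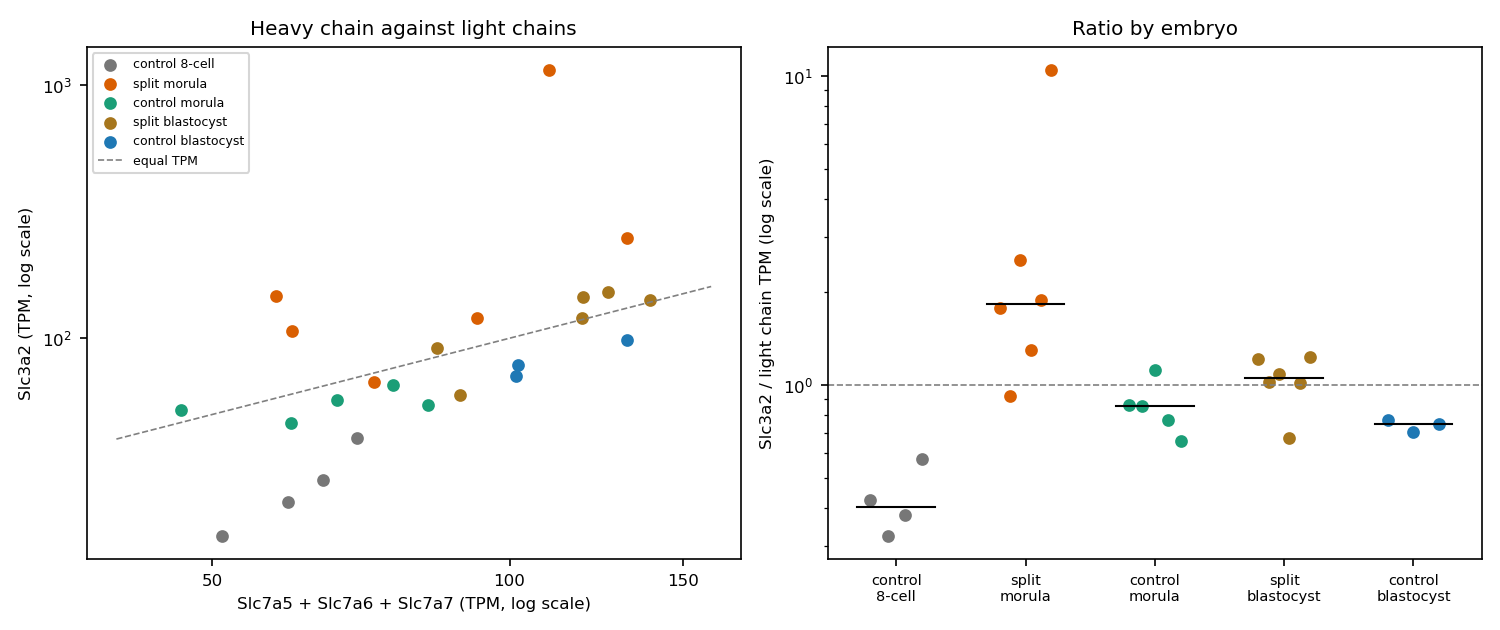
Slc3a2 heavy chain against the sum of its light chains Slc7a5, Slc7a6 and Slc7a7 in TPM (left), and their ratio by group with lines at the medians (right), on logarithmic axes, with 1 point per embryo and a dashed line at equal TPM. Of the 6 split morulae 5 lie above the line, with embryo 3_2 at a ratio of 10.4, and the 8-cell embryos lie below it at 0.324 to 0.576.

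The cationic transporters Slc7a1 (CAT1), the main arginine and lysine carrier of most cells, and Slc7a3 (CAT3) were near or at 0 in 8-cell embryos. Slc7a1 had 0, 0.749, 0 and 0 CPM in 8-cell embryos. It ran from 0 through a median of 1.68 CPM to 16.3 CPM in split morulae, against 3.91, 1.30, 3.65, 1.76 and 3.31 CPM in control morulae. The split range was wider on both sides, with 6 split against 5 control embryos. Slc7a1 ran from 1.62 through 7.28 to 9.84 CPM in split blastocysts, against 8.78, 11.8 and 8.95 CPM in control blastocysts. The summed pairs lay below the controls there. None of these differences was called, with log2 fold changes of 0.90 ± 1.37 at the morula (edgeR adjusted p = 0.885) and -0.59 ± 1.57 at the blastocyst (edgeR adjusted p = 0.975). The control morulae were all above the 8-cell embryos, with a log2 fold change of 3.93 ± 1.51 (edgeR adjusted p = 0.0601). DESeq2 called that difference (adjusted p = 0.00392), and over all alternatives the adjusted p ran from 0.00111 to 0.187.

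Slc7a3 was above 1 CPM in 1 control morula (4.86 CPM) and in no split morula, where the highest value was 0.472 CPM. In blastocysts it ran from 0 through a median of 1.88 CPM to 17.1 CPM in split embryos, against 1.18, 2.31 and 4.02 CPM in control embryos. The split blastocyst pairs lay above the split morula pairs, with a log2 fold change of 5.95 ± 2.94 that edgeR did not call (adjusted p = 0.257) and that limma on log2(TPM + 1) did (adjusted p = 0.0189, the lowest of the alternatives, which reached 0.409).

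Slc1a5 (ASCT2), a sodium-dependent exchanger of glutamine and other neutral amino acids, was highest on average in blastocysts. Slc1a5 ran from 0.177 through a median of 8.93 CPM to 25.6 CPM in split morulae, against 6.18, 12.1, 0.836, 6.45 and 16.8 CPM in control morulae. It ran from 8.996 through 37.8 to 54.0 CPM in split blastocysts, against 15.0, 17.2 and 29.3 CPM in control blastocysts. Split embryos reached beyond their controls in both directions at both stages, though 6 split embryos were set against 5 control morulae and 3 control blastocysts. The log2 fold changes were 0.48 ± 0.71 at the morula (edgeR adjusted p = 0.874) and 0.87 ± 0.81 at the blastocyst (edgeR adjusted p = 0.756). The 8-cell embryos held 2.93, 5.17, 15.1 and 15.7 CPM, overlapping the control morulae.

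Slc38a1 (SNAT1), a sodium-coupled importer of glutamine and other small neutral amino acids, was the transporter with a call over normal development. Slc38a1 had 17.1, 17.7, 22.03, 20.7 and 36.6 CPM in control morulae, against 0, 1.20, 0 and 0 CPM in 8-cell embryos. The groups did not overlap, and the log2 fold change of 6.30 ± 1.18 was called (edgeR adjusted p = 0.000447, 5 and 4 embryos). The size is poorly fixed, since the 8-cell group holds 32 counts in embryo 2 and 0 in the other 3, and over the alternatives the log2 fold change ran from 1.92 (limma on log2(TPM + 1), a scale that understates changes of low genes) to 12.20 (without 8-cell embryo 2). The call stood in 16 of 16 alternatives, with adjusted p-values up to 0.00835. It was 1 of 9 transporters called in this comparison, where 24.9% of all tested genes were called and 14.3% were called upward. Between control blastocysts and control morulae Slc38a1 had a log2 fold change of -0.01 ± 0.96 (edgeR adjusted p = 1.0).

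In split embryos Slc38a1 spread widely around the intact level, with 6 split embryos per stage against 5 control morulae and 3 control blastocysts. It ran from 0 through a median of 16.5 CPM to 41.9 CPM in split morulae, where embryo 3_2, the one highest in Slc3a2, had none. It ran from 5.70 through 41.9 to 67.4 CPM in split blastocysts, against 18.7, 23.1 and 30.4 CPM in control blastocysts. Both comparisons overlapped, and the log2 fold changes of -0.38 ± 0.97 and 0.78 ± 1.08 were not called (edgeR adjusted p = 0.960 and 0.896).

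Slc38a2 (SNAT2), the related importer whose transcript is induced in starved mammalian cells, was lower on average in split embryos than in controls at both stages. Slc38a2 had no count in 5 of 6 split morulae and 11.4 CPM in embryo 1_2, against 0.0583, 12.1, 0, 18.4 and 5.43 CPM in control morulae. It ran from 0.894 through a median of 3.20 CPM to 15.7 CPM in split blastocysts, against 16.5, 19.4 and 11.8 CPM in control blastocysts. The split blastocyst pairs were all below the control blastocysts, and control morulae overlapped split morulae. Neither difference was called, with log2 fold changes of -2.06 ± 1.96 at the morula (edgeR adjusted p = 0.727) and -1.40 ± 2.04 at the blastocyst (edgeR adjusted p = 0.905). The 8-cell embryos held 14.5, 12.5, 7.53 and 0 CPM.

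Slc6a9 (GLYT1), the glycine importer that in mouse eggs and early embryos serves volume control, was at the edge of detection. It had 13 counts in split blastocyst 1_1 (0.662 CPM) and 0 in the other 23 embryos. Its 0 of 126147812 counts in 8-cell embryos allows up to 0.0238 CPM, and the limits from the other groups at 0 were 0.0295 CPM in split morulae, 0.0352 CPM in control morulae and 0.0822 CPM in control blastocysts. These limits cover counting error only.

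Across the comparisons, calls among the transporters were few. Between stages, the median log2 fold change of the 9 transporters was 0.24 in control morulae over 8-cell embryos, against 0.09 for all tested genes. It was 1.18 (all genes 0.11) in control blastocysts over control morulae and 1.06 (all genes 0.05) in split blastocysts over split morulae. In split morulae against control morulae, the median log2 fold change of the 9 was 0.48, against 0.00 for all tested genes. In split blastocysts against control blastocysts it was 0.78, against 0.00 for all tested genes. There edgeR called 0 of 9, where 4.74% of all tested genes were called, none had an unadjusted p under 0.05, and DESeq2 and limma also called 0. Units of these blastocyst groups did not overlap for 3 of 9 transporters (Slc7a7 above, Slc7a1 and Slc38a2 below), near the 31.0% of all tested genes.

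Between split blastocysts and split morulae, edgeR called 0 of 9 (background 4.17%), Slc3a2 alone had an unadjusted p under 0.05, DESeq2 called 0 and limma called Slc7a3. Among all 15875 genes 3213 had an unadjusted p under 0.05. DESeq2 called 801 up and 896 down of 15447 genes, and limma called 859 up and 521 down of 15625. Units did not overlap for 2 of 9 (Slc7a3 and Slc1a5), against 27.4% of all tested genes. Between control morulae and 8-cell embryos, units did not overlap for 3 of 9 (Slc3a2, Slc7a1 and Slc38a1), against 21.8% of all tested genes. Between control blastocysts and control morulae, edgeR called 0 of 9 (background 10.6%), none had an unadjusted p under 0.05, DESeq2 called 0 and limma called Slc7a1 (adjusted p = 0.0177, the lowest of the alternatives, which reached 0.779). In that comparison 3977 of all 15875 genes had an unadjusted p under 0.05. DESeq2 called 1012 up and 1560 down of 15447 genes, and limma called 2684 up and 836 down of 15625. Units there did not overlap for 2 of 9 (Slc7a5 and Slc7a1), against 24.6% of all tested genes. For the split effect at the blastocyst minus that at the morula, edgeR called 0 of 9 (background 1.64%), Slc3a2 alone had an unadjusted p under 0.05, and DESeq2 and limma called 0. For this difference 2272 of all 15875 genes had an unadjusted p under 0.05. DESeq2 called 584 up and 290 down of 15447 genes, and limma called 45 up and 69 down of 15625. Several of these comparisons share their control or split embryos, so their values for a gene are not independent.

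**Figure D3:**
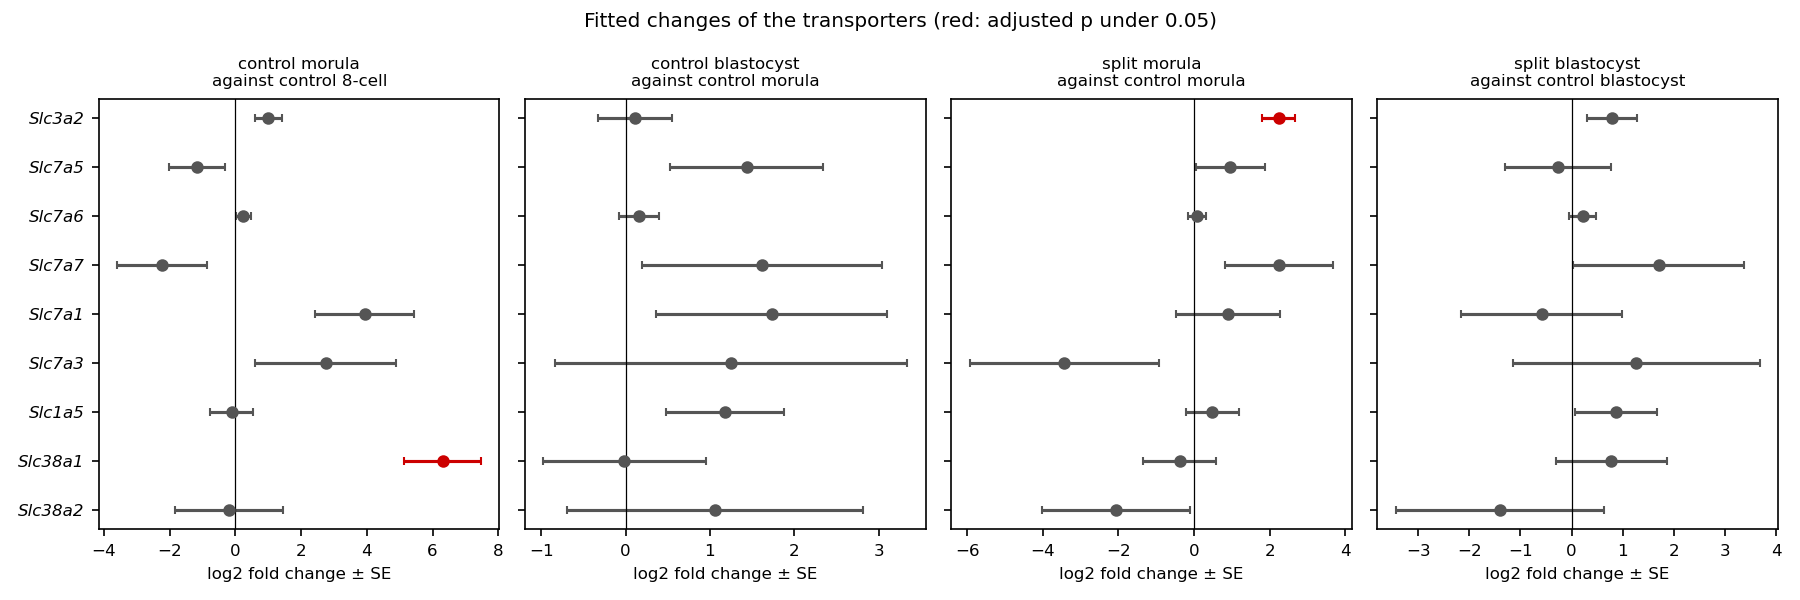
Fitted log2 fold changes of 9 transporters (horizontal axes, whose scales differ between panels) in 4 comparisons, 1 panel each, with points for edgeR's estimates and bars for ± SE. Slc38a1 in control morulae against 8-cell embryos (6.30) and Slc3a2 in split morulae against control morulae (2.24) are the called values, drawn in red, and the scarce transporters have longer bars than Slc7a6.

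Sisters from 1 two-cell embryo lay closest in Slc7a6, Slc7a5 and Slc3a2, and several of the other transporters differed widely. Within the 6 pairs, the higher sister exceeded the lower by 1.00- to 1.73-fold in Slc7a6, by 1.04- to 2.65-fold in Slc7a5 and by 1.13- to 4.08-fold in Slc3a2. Slc1a5 ranged from 1.00- to 145-fold with a median of 1.95. Its widest pair was split morulae 3_1 and 3_2, where embryo 3_1 had 3 counts. A transporter was at 0 in one sister and counted in the other in 1 pair for Slc7a7, 1 for Slc38a1, 1 for Slc38a2, 2 for Slc7a1 and 3 for Slc7a3.

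**Figure D4:**
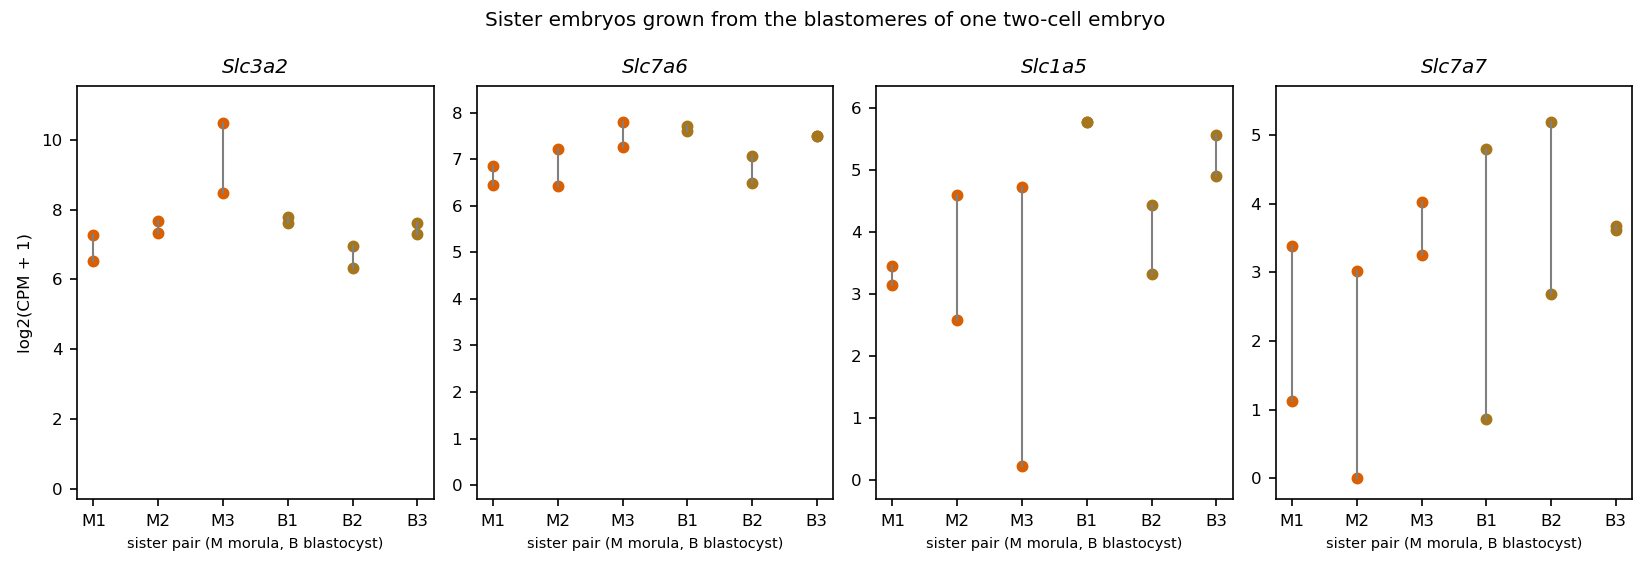
Level of Slc3a2, Slc7a6, Slc1a5 and Slc7a7 as log2(CPM + 1) in both sisters of each split pair (horizontal axis, M for morula and B for blastocyst, with the pair's number), joined by a line. Sisters lie close in Slc7a6 and, but for pair 3 of the split morulae with a 4.08-fold gap, in Slc3a2. They lie far apart in several pairs of Slc7a7 and, for Slc1a5, in pairs 2 and 3 of the split morulae (4.66- and 145-fold).

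The genes whose profile was most like that of Slc3a2 were found over the 18 units by the root mean square difference of centred log2 CPM, among 6561 genes. They were Xrcc1 at 0.54, Poldip3 (an mRNA export and translation factor) at 0.57, Prkar1a (a regulatory subunit of protein kinase A) at 0.58, Tex19.1 (a germ cell and placental gene) at 0.61 and Tarbp2 (a Dicer partner) at 0.62. The median gene stood at 1.31. Pair 3 of the split morulae was the highest unit in Slc3a2, at 903 CPM, and Xrcc1 also peaked in its embryo 3_2. The part of this pair in the ranking was not tested. For Slc7a5 the nearest genes were Nkiras2, Lrba, Cpsf1, Kcns3 and Hgs, at 0.80 to 0.98 against a median of 1.72.

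Other genes of amino acid supply gave a background for the transporters. Of 34 further plasma membrane amino acid transporters 19 were tested. Split embryos showed no edgeR call at either stage, where 0.126% of all tested genes were called at the morula and 4.74% at the blastocyst. At an unadjusted p under 0.05 there were 0 of 19 at the morula and 1 at the blastocyst, DESeq2 called 0 at both, and limma called 0 at the morula and 1 at the blastocyst. Control morulae against 8-cell embryos had 6 rises and 1 fall among the 19, where 24.9% of all tested genes were called and 14.3% rose. The largest rises were those of the proton-coupled transporters Slc36a3, at 0.966 ± 0.676 CPM in control morulae and 0.0104 ± 0.0209 CPM in 8-cell embryos, and Slc36a1, at 3.10 ± 2.54 CPM in control morulae and 0.192 ± 0.175 CPM in 8-cell embryos. The fall was the taurine transporter Slc6a6, at 63.3 ± 22.5 CPM in control morulae and 132 ± 49.2 CPM in 8-cell embryos (SD, n = 5 and 4). In control blastocysts the glutamate transporter Slc1a3 rose to 19.4 ± 8.07 CPM, against 0.429 ± 0.591 CPM in control morulae (SD, n = 3 and 5). The neutral amino acid transporter Slc6a15 fell to 1.67 ± 0.941 CPM in control blastocysts, against 20.6 ± 9.73 CPM in control morulae.

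Among 37 tested genes of lysosomal amino acid sensing and mTORC1, 28 of the amino acid response and 24 cytosolic aminoacyl-tRNA synthetases and their cofactors, edgeR called 0 in split morulae against control morulae. At an unadjusted p under 0.05 there were 7, 4 and 8, DESeq2 called 3, 2 and 2, and limma called 0, 0 and 2. Over all genes edgeR called 0.126% in this comparison, and 2377 of 15875 had an unadjusted p under 0.05. DESeq2 called 266 up and 410 down of 15447 genes, and limma called 30 up and 9 down of 15625. In split blastocysts against control blastocysts, edgeR called 2 up in the first list, 2 up and 1 down in the second and 3 up in the third. There 4.74% of all tested genes were called, 543 up and 209 down. That direction over all genes depended on scaling, since edgeR with library totals called 343 up and 354 down. With limma on TPM more genes were also called down than up. The nucleoporin and GATOR2 subunit Sec13 was at 382 ± 40.5 CPM in split blastocysts and 96.6 ± 3.57 CPM in control blastocysts (SD, n = 3 each). Control morulae held 310 ± 43.4 CPM of Sec13 (SD, n = 5). The Ragulator subunit Lamtor1 was at 299 ± 26.9 CPM in split blastocysts and 105 ± 19.7 CPM in control blastocysts. Both passed the test, with edgeR adjusted p-values of 0.000106 and 0.000443.

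Within the amino acid response list, Phgdh, the first enzyme of serine synthesis, was at 255 ± 72.8 CPM in split blastocysts, against 56.9 ± 36.7 CPM in control blastocysts (edgeR adjusted p = 0.00216). Eif4ebp1, a translation repressor and ATF4 target, was higher in split blastocysts by a log2 fold change of 1.19 ± 0.25 (edgeR adjusted p = 0.00618). The transcription factor Cebpg was lower by 1.68 on the log2 scale (edgeR adjusted p = 0.00847). On the log2 scale the synthetase complex scaffold Aimp2 was higher by 2.33 ± 0.29 and the phenylalanyl-tRNA synthetase subunit Farsb by 1.61 ± 0.29. The lysyl-tRNA synthetase Kars was higher by 0.96 ± 0.21. Aimp2 was at 132 ± 7.66 CPM in split blastocysts, 26.3 ± 1.71 CPM in control blastocysts and 98.9 ± 11.5 CPM in control morulae (SD, n = 3, 3 and 5). The split effects at blastocyst and morula differed by test for Sec13, Lamtor1, Cebpg, Aimp2 and Farsb (edgeR adjusted p = 0.00727, 0.00754, 0.0376, 0.00452 and 0.0257), where 1.64% of all tested genes were called. In all edgeR called 3 of the 37 sensing genes, 1 of the 28 response genes and 2 of the 24 synthetase genes for this difference, DESeq2 called 4, 2 and 4, and limma called 0, 1 and 1. The summed trophectoderm markers were higher in split than in control blastocysts, as given above. Their part in these differences was not tested.

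Over normal development the control morulae against 8-cell embryos had 7 rises and 2 falls among the 37 sensing genes, near the 24.9% called among all tested genes. Rragd, a Rag GTPase that recruits mTORC1 to lysosomes, was at 199 ± 57.0 CPM in control morulae and 5.45 ± 5.63 CPM in 8-cell embryos (SD, n = 5 and 4). Rraga, another Rag GTPase, was at 18.3 ± 4.68 CPM in control morulae and 0.603 ± 0.696 CPM in 8-cell embryos. The mTORC1 inhibitor Akt1s1 and the nucleoporin Seh1l fell by 1.24 and 0.82 on the log2 scale.

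The amino acid response list had 4 rises and 4 falls among 28 genes in control morulae against 8-cell embryos, again near the 24.9% of all tested genes. Impact, an inhibitor of GCN2, rose by 2.95 ± 0.46 on the log2 scale. Atf5, a transcription factor, was at 1.08 ± 1.02 CPM in control morulae and at 0 in every 8-cell embryo. Cebpg fell by 2.76 on the log2 scale. The proline synthesis enzyme Aldh18a1 fell by 5.15 ± 1.804 on that scale (SE; edgeR adjusted p = 0.0433), a size that is poorly fixed. Aldh18a1 was at 0.0270 ± 0.0375 CPM in control morulae and 1.0997 ± 1.624 CPM in 8-cell embryos (SD, n = 5 and 4), so its 8-cell SD exceeded its mean. The synthetase list had 6 rises and 0 falls among 24 genes, also near that share, led by Tars at 1.34 ± 0.36 and Dars at 1.21 ± 0.21 on the log2 scale.

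In control blastocysts against control morulae there were 0 rises and 7 falls among the sensing genes, 3 rises and 3 falls in the amino acid response list and 1 rise and 5 falls among the synthetases. Of all 15875 tested genes 10.6% were called there, 496 rising and 1184 falling. Sec13 fell by 1.68 and the arginine sensor Castor1 fell by 1.55 on the log2 scale. Cebpg was at 46.6 ± 5.57 CPM in control blastocysts and 20.7 ± 3.94 CPM in control morulae, and Aldh18a1 was at 8.70 ± 6.33 CPM in control blastocysts and 0.0270 ± 0.0375 CPM in control morulae. Cth, which makes cysteine, fell by 2.24 and the serine synthesis enzyme Psat1 fell by 1.11 on the log2 scale. The alanyl-tRNA synthetase Aars rose by 1.59 ± 0.38, while Aimp2 fell by 1.91 and Eef1e1, another cofactor of the synthetase complex, fell by 1.53.

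In split blastocysts against split morulae, edgeR called 2 rises and 2 falls among the 28 genes of the amino acid response list, where 4.17% of all tested genes were called. Atf4, the transcription factor at the centre of that response, was at 143 ± 39.4 CPM in split blastocysts and 55.9 ± 4.96 CPM in split morulae (SD, n = 3 pairs each; edgeR adjusted p = 0.0242). Aldh18a1 was at 7.998 ± 3.57 CPM in split blastocysts and at 0 in the split morula pairs. Cth and Psat1 fell by 2.06 and 0.75 on the log2 scale. Among the 80 other tested genes of the 3 remaining lists edgeR called 0, with 16 at an unadjusted p under 0.05. DESeq2 called 2 of these 80 and limma called 2, and the difference between lists was not tested. Over all genes, 3213 of 15875 had an unadjusted p under 0.05. DESeq2 called 801 up and 896 down of 15447 genes, and limma called 859 up and 521 down of 15625.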

How the data were processed

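RNA of 24 single mouse embryos was sequenced, and p-values measure the spread between these embryos or sister pairs, whose origin from separate litters is not stated. Per the submitters' processing notes, reads went through FastQC, MultiQC, cutadapt, HISAT2, featureCounts and edgeR on the build GRCm39, with no versions or settings given, and strand and annotation are not given in the sources used here. The authors deposited raw read counts of 37229 genes, of which 13375 were at a count of 0 throughout. The authors also deposited TPM values of 15625 genes, normalised for length and library, which summed to 997279 to 999351 per embryo. No molecular identifiers were used.

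Counts of sisters were summed, since both come from 1 two-cell embryo, giving 18 units. Genes were filtered with filterByExpr (15875 kept), scaled by TMM and fitted in 1 model of the 5 groups (13 residual degrees of freedom) with edgeR 4.0.16's robust quasi-likelihood test, in R 4.3.3. Calls are Benjamini-Hochberg adjusted p under 0.05 over all tested genes, two-sided. Embryo CPM was scaled over the 24 embryos and unit CPM over the 18 units. Alternatives were DESeq2 1.42.0, limma 3.58.1 on log2(TPM + 1), library totals without TMM, no count filter, single embryos as samples, the compared groups alone, a replicate block and each unit left out in turn. Leaving out embryo 3_2, and the search for genes with a single high embryo, were added after the data were seen. The code was checked on counts simulated from the model's own fitted spread. That check does not cover scarce genes or single outlying embryos. All members were named in every comparison, and from each other list the called genes with the largest changes, up to 4 in each direction for split against control and up to 2 otherwise. Of the synthetase symbols, 18 were matched by older names. The members and lists were chosen with earlier results of these data known.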

Additional observations from a re-analysis of the deposited data

Results flagged for a closer look

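Single embryos far from the rest of their group were found in 9 of 37 combinations of transporter and group, by the gap of the highest or lowest embryo to its neighbour relative to the group's range. Chance flags about 1 in 20 groups of evenly spread values, a rate that does not apply where all other embryos are at or near 0. That was so for 7 of the 9, in which every other embryo was at 0.0652 CPM or less and 1 counted embryo is enough. Slc3a2 was at 1439 CPM in split morula 3_2. Slc38a2 was at 11.4 CPM in split morula 1_2 and at 0 in the other split morulae, and Slc7a3 was at 0.472 CPM in split morula 3_1. Slc6a9 was at 0.662 CPM in split blastocyst 1_1 and at 0 in the other split blastocysts. Slc38a1 was at 36.6 CPM in control morula 5, and Slc7a3 was at 4.86 CPM in control morula 3. In 8-cell embryo 2, Slc38a1 was at 1.20 CPM, Slc7a1 at 0.749 CPM and Slc7a3 at 0.599 CPM, with all 3 at 0 in the other 8-cell embryos. The cause was not tested.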

How the results depend on the processing

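Of 862 fitted changes of transporters under alternatives, 806 kept their direction and their side of the threshold, 11 lost and 6 gained a call, and 39 changed sign, none of them called. The count of called transporters in control morulae against 8-cell embryos was 2 with the compared groups alone (adding Slc3a2) and with DESeq2 (adding Slc7a1), and 1 to 2 when single units were left out. In split morulae against control morulae it was 0 without the count filter, with the compared groups alone, with the replicate block, with limma on TPM and without embryo 3_2, and 0 to 1 when single units were left out. In split blastocysts against split morulae it was 1 with limma on TPM and 0 to 1 when single units were left out, and in control blastocysts against control morulae it was 1 with limma on TPM. Replicate numbers did not pair the samples (correlations of deviations from -0.03 to 0.08 over 31 pairs of equal number). With the replicate block, Slc3a2 in split over control morulae had a log2 fold change of 2.01 (adjusted p = 0.111).

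For uncalled changes that reversed, log2 values follow. Slc38a1 in control blastocysts against control morulae was 0.42 with library totals, 0.0054 without the count filter, 0.077 with single embryos, 0.076 with DESeq2 and 0.37 with limma, and -0.21 to 0.23 with units left out. Without embryo 3_2, Slc1a5 in split against control morulae was -0.15 and Slc7a1 in split blastocysts against split morulae was -0.35. With limma, Slc7a6 in split against control blastocysts was -0.086. For the difference between split effects, Slc7a6 was -0.21 with library totals and -0.33 with limma, Slc1a5 was -0.034 with the block and -0.39 with limma, and Slc38a2 was -0.61 with limma. With single units left out, control morulae against 8-cell embryos ran from -2.85 to 7.67 for Slc7a3, -0.52 to 0.21 for Slc1a5 and -0.90 to 0.18 for Slc38a2. Split against control morulae ran from -0.22 to 0.28 for Slc7a6, -5.71 to 2.16 for Slc7a3 and -1.34 to 0.029 for Slc38a1. Split against control blastocysts ran from -0.71 to 0.071 for Slc7a5. Split blastocysts against split morulae ran from -1.77 to 0.040 for Slc3a2, -0.23 to 0.47 for Slc7a5 and -0.32 to 0.71 for Slc7a1. The difference between split effects ran from -0.073 to 0.44 for Slc7a6, -1.34 to 0.040 for Slc7a7, -0.90 to 6.97 for Slc7a3, -0.058 to 0.74 for Slc1a5 and -0.052 to 9.10 for Slc38a2. The cause was not tested.

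Scaling by library totals placed the median of all genes in control blastocysts against control morulae at a log2 value of 0.53, and limma on TPM at 0.37, against 0.11 with TMM. With library totals edgeR called 1212 genes up and 677 down there, against 496 and 1184 with TMM. In split against control blastocysts the median was -0.14 with library totals and -0.080 with limma, against 0.00 with TMM. For the difference between split effects it was -0.26 and -0.23, against 0.05 with TMM. The 3 split pairs per stage and the low counts of Slc7a3, Slc7a1, Slc38a2 and Slc7a7 limit precision, with standard errors of 1.36 to 3.42 in the 6 comparisons for these genes.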
